A study of Bos taurus with 20 samples.

Results

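Leukocytes leave the blood in steps. Selectins and their ligands slow the cell and let it roll on the vessel wall, integrins then arrest it on adhesion molecules of the immunoglobulin family, and junction proteins guide it between endothelial cells. The gene set described here holds members of each step: SELPLG (the selectin ligand PSGL-1), the integrin subunits ITGAL (CD11a), ITGAM (CD11b), ITGAX (CD11c), ITGB2 (CD18) and ITGA4, the integrin ligands ICAM1 and ICAM3, and the junction protein PECAM1. CD18 pairs with each CD11 subunit, and its inherited loss in cattle causes leukocyte adhesion deficiency, in which neutrophils stay in the blood and infections recur. The members were chosen by symbol, and 8 of the 9 were matched to the 37063 gene identifiers of the counts. ITGAX was not in the gene table used for names and has no value here. All 8 passed the filter on low counts, of 16206 genes that did.

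Whole blood was collected into Tempus RNA tubes at day 63 of gestation from 20 recipient cows, each carrying a female, beef breed fetus from an in vitro produced embryo, and 1 library per cow was sequenced. The cows formed 1 group with no treatment, and the birth weight (BW) of the calf was the only variable. BW was 45.0 ± 10.1 kg (SD, n = 20) and 43.5 ± 7.97 kg (SD, n = 19) without the calf of 72.5 kg. The study's methods call the recipients lactating dairy cows, whereas its list of samples gives their breed as Angus and a wide range of ages. Neither breed nor age is in the sample labels, and their part in the results was not tested. Each cow is named here by the weight of its calf, and levels are CPM (counts of a gene scaled to the library total) after TMM scaling.

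The libraries held 24632077 to 39892111 counts per cow, with TMM factors of 0.976 to 1.03, and in each of the 190 pairs of libraries the counts differed beyond sampling noise (chi-square over degrees of freedom of 12.6 or more). The 9 neutrophil markers listed summed to 2862 to 5244 CPM and the 7 T cell markers to 649 to 1046 CPM. Endothelial cells, which also carry ICAM1 and PECAM1, left little RNA: the 2 of 5 endothelial markers that passed the filter, CDH5 and TEK, summed to 1.20 to 4.24 CPM, and CLDN5, ROBO4 and EMCN had at most 12 counts in any cow. In whole blood, fewer cells of a type and less RNA per cell cannot be told apart. No sequencing batch is named in the labels, so no comparison within batches was possible. How reads that align to more than 1 gene were counted is not given in the sources used here, so values of genes with close relatives, such as the CD11 and ICAM genes, are uncertain to that extent.

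The rolling ligand SELPLG, which binds selectins through a modified stretch of its outer part, had 456 CPM at the lowest, a median of 558 CPM and 650 CPM at the highest. The cows of the 72.5, 45 and 56 kg calves were lowest, at 456, 459 and 466 CPM, and those of the 37, 32 and 40 kg calves highest, at 650, 646 and 639 CPM. High and low values were otherwise mixed along BW: the cow of the 47.4 kg calf had 469 CPM and that of the 50 kg calf 624 CPM.

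The integrin subunits of CD18 differed in how much they varied between cows. ITGAL, the CD11a subunit that is carried by nearly all leukocytes, ranged from 742 CPM in the cow of the 56 kg calf to 999 CPM in that of the 32 kg calf, with a median of 845 CPM and a coefficient of variation of 8.50%. ITGB2, the shared CD18 chain, was as even, with a lowest value of 548 CPM (41.5 kg), a median of 651 CPM, a highest of 746 CPM (43 kg) and a coefficient of variation of 8.36%. ITGAM, the CD11b subunit of myeloid and natural killer cells, ranged from 291 CPM (41.5 kg) over a median of 389 CPM to 632 CPM (56 kg), a ratio of 2.17 and a coefficient of variation of 22.6%. Its 2 highest cows stood above the others: the cow of the 56 kg calf had 632 CPM and that of the 46 kg calf 539 CPM, and the next, that of the 53 kg calf, had 461 CPM. The standard deviation of the log2 level was 0.12 for ITGAL and for ITGB2 and 0.31 for ITGAM, beside a median of 0.22 over all genes tested.

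ITGA4 pairs with ITGB1 to bind VCAM1 and with ITGB7 to bind MADCAM1. It had 445 CPM (32 kg) at the lowest, a median of 567 CPM and 630 CPM (49.5 kg) at the highest. The cows of the 46 and 50 kg calves were also low for ITGA4, whereas that of the 50 kg calf had the second highest ITGB2 level, 745 CPM.

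ICAM3, an ICAM of resting leukocytes that binds CD11a/CD18, ranged from 126 CPM (36 kg) over a median of 157 CPM to 235 CPM (56 kg). The cow of the 46 kg calf came next with 223 CPM, so the same 2 cows led ICAM3 and ITGAM. ICAM1, the inducible ligand of CD11a and CD11b that many cell types can carry, had 2.83 CPM (38 kg) at the lowest, a median of 4.10 CPM and 6.56 CPM (55 kg) at the highest. These were 92 to 231 counts per cow, and at 92 counts the counting error alone is 10.4%, against a coefficient of variation of 24.4% between cows. The values of ICAM1 are thus the least precise of the members. PECAM1, which platelets, leukocytes and endothelial cells carry at their contacts, ranged from 48.6 CPM (55 kg) over a median of 56.5 CPM to 74.1 CPM (43 kg).

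**Figure D1:**
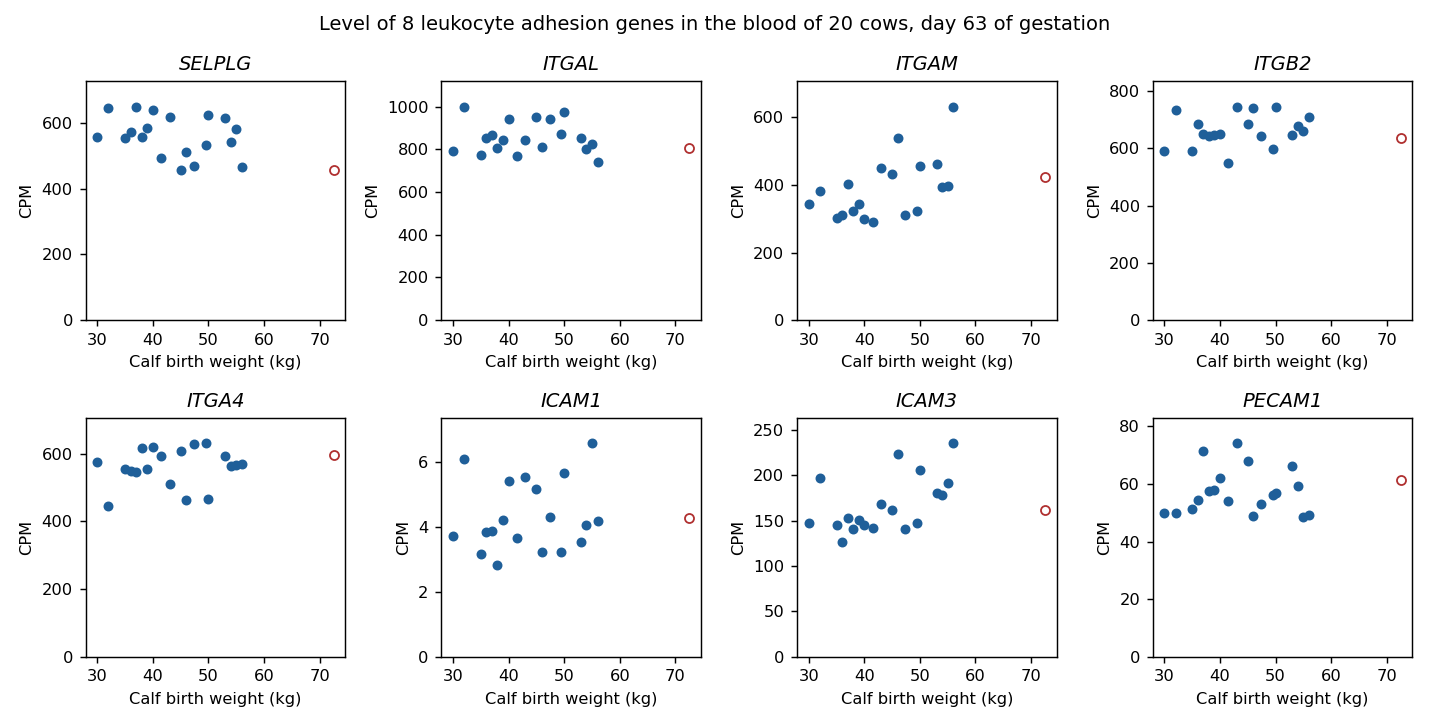
Level of each of the 8 adhesion genes (CPM after TMM scaling, y axis from 0) against the birth weight of the calf (kg), 1 point per cow, with the cow of the 72.5 kg calf as an open circle. ITGAM and ICAM3 have their highest values in the cows of the 56 and 46 kg calves, while ITGAL and ITGB2 vary little.

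The study asked which genes of maternal blood are associated with calf BW. In the 19 cows without that of the 72.5 kg calf, edgeR's quasi-likelihood test was fitted to all genes, and a false discovery rate (FDR, Benjamini-Hochberg over all 16206 genes) below 0.05 was called. None of the 8 members was called, and 0.0% of all genes were; at an FDR below 0.1 it was again 0 of 8 members, beside 0.315% of all genes. At an unadjusted p below 0.05 there were 2 of 8 members, ITGAM and ICAM3, both with a positive slope, beside 13.9% of all genes in either direction and 6.78% with a positive slope. With DESeq2, the tool of the study, 0 of 8 members had an FDR below 0.05, beside 1.22% of the genes given an FDR, and 1 of 8, ITGAM, had an FDR below 0.1, beside 2.93%.

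The ITGAM level had a slope of 0.0213 ± 0.0071 log2 per kg (SE, 19 cows), which is 15.9% per 10 kg of calf BW with a 95% interval of 4.66% to 28.4% (unadjusted p = 0.00679, edgeR FDR = 0.198, DESeq2 FDR = 0.0985). For ICAM3 the slope was 0.0165 ± 0.00577 log2 per kg (SE, 19 cows), or 12.1% per 10 kg with a 95% interval of 3.17% to 21.8% (unadjusted p = 0.00943, edgeR FDR = 0.215, DESeq2 FDR = 0.135). Both slopes were positive in each of the 19 fits that left out 1 cow, and an unadjusted p below 0.05 was found in 18 of the 19 for each gene. The exception left out the cow of the 56 kg calf, with p = 0.0535 and a slope of 0.0146 for ITGAM and p = 0.0502 and a slope of 0.0126 for ICAM3. In that fit 9.93% of all genes had a p below 0.05, beside 13.9% in the 19 cows. When the cow of the 32 kg calf was left out, ICAM3 had a slope of 0.0225 with an edgeR FDR of 0.0657, and DESeq2 then called it (FDR = 0.0085), the only call of a member in its 19 such fits. In that fit DESeq2 called 2.7% of all genes, beside 1.22% in the 19 cows.

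The 95% intervals of the other slopes all included 0. Per 10 kg of calf BW, the level of SELPLG differed by -4.63% (95% interval -10.5% to 1.68%, edgeR FDR = 0.528) and that of ITGAL by -1.52% (-6.54% to 3.77%, edgeR FDR = 0.838). For ITGB2 the difference was 2.15% (-2.83% to 7.38%, edgeR FDR = 0.750) and for ITGA4 it was 1.58% (-4.58% to 8.13%, edgeR FDR = 0.868). ICAM1 had 4.35% with the widest interval of the 8 (-9.89% to 20.8%, edgeR FDR = 0.839), and PECAM1 -0.0957% (-8.01% to 8.50%, edgeR FDR = 0.996). The intervals of SELPLG, ITGAL, ITGB2, ITGA4 and PECAM1 leave out a difference as large as that fitted for ITGAM, whereas that of ICAM1 does not.

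**Figure D2:**
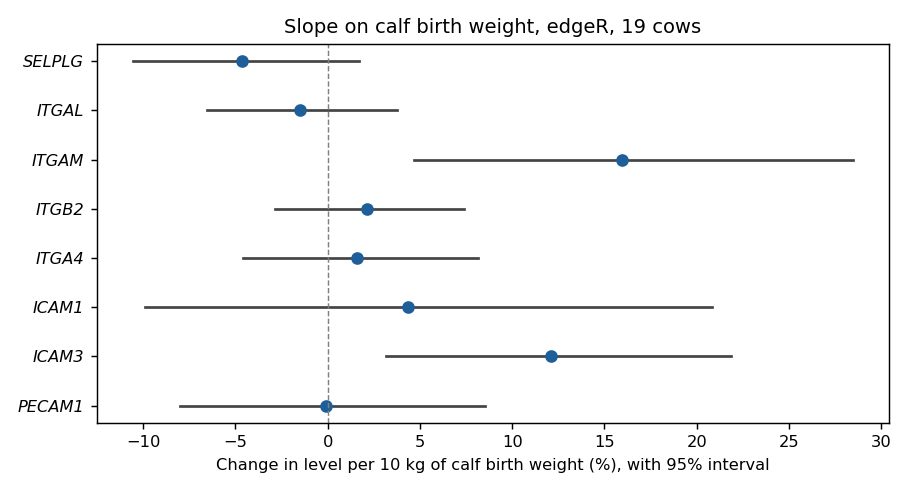
Change in level per 10 kg of calf birth weight (%, x axis) for each adhesion gene, as points with 95% intervals from edgeR in 19 cows. The intervals of ITGAM (4.66% to 28.4%) and ICAM3 (3.17% to 21.8%) lie above 0 before adjustment over all genes, and the other 6 include 0.

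With the cow of the 72.5 kg calf included, Pearson's r of the log2 level with calf BW was 0.48 for ITGAM (two-sided permutation p = 0.0309, FDR = 0.327, Spearman's rho 0.52 with permutation p = 0.0206) and 0.40 for ICAM3 (permutation p = 0.0769, FDR = 0.429, rho 0.48 with permutation p = 0.0316). SELPLG had r = -0.48 (permutation p = 0.0317, FDR = 0.330) and rho = -0.43 (permutation p = 0.0617). Without the 2 cows farthest from the median BW, those of the 72.5 and 30 kg calves, r was 0.54 for ITGAM, 0.54 for ICAM3 and -0.36 for SELPLG, which was lowest in the cow of the 72.5 kg calf. In edgeR with all 20 cows, SELPLG had an unadjusted p of 0.0275 (FDR = 0.311), against 0.139 in 19 cows, and ICAM3 0.0559 (FDR = 0.385). The other 5 members had r between -0.18 and 0.21. None of the 8 correlations had an FDR below 0.05, and 0.0% of all genes did by Pearson's r. By Spearman's rho 0 of 8 members had one, beside 0.0247% of all genes.

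Co-variation between members was examined as Pearson's r of log2 CPM over the 20 cows for the 28 pairs, with permutation p-values adjusted over all 129612 pairs of a member with a tested gene. Of the 28 pairs, 17 were positive and 11 negative, with a median r of 0.15, beside a median of -0.015 for the members with all other genes. A single pair had an FDR below 0.05, beside 1.39% of the pairs of a member with any tested gene (1.17% with a positive r). That pair was ITGAM and ICAM3, with r = 0.88 (permutation p = 1e-05, FDR = 0.00359, where 100000 resamples allow no smaller p) and rho = 0.86 (permutation p = 1e-05). The cows of the 56 and 46 kg calves were the 2 highest for both genes, and without the 2 cows farthest from the ITGAM median r was 0.78. With each cow left out in turn r was 0.83 to 0.90. Among all tested genes, ICAM3 ranked 111 by r with ITGAM, and ITGAM ranked 36 by r with ICAM3.

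The other CD18 relations were below the threshold. ITGB2 and its partner ITGAM had r = 0.67 (permutation p = 0.00118, FDR = 0.0672, rho 0.62), and ITGB2 and ICAM3 had r = 0.65 (permutation p = 0.00206, FDR = 0.0912, rho 0.65). With its other partner ITGAL, ITGB2 had r = 0.40 (permutation p = 0.083, FDR = 0.445). The 2 CD11 subunits themselves had r = -0.11 (permutation p = 0.638).

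ITGA4 was negative with 6 of the other 7 members. Its lowest r was with ITGB2, at -0.68 (permutation p = 0.00086, FDR = 0.0554, rho -0.63), and it had -0.58 with ICAM3 (permutation p = 0.00765, FDR = 0.172). With RLE scaling in place of TMM the r of ITGA4 and ITGB2 was -0.70 with an FDR of 0.0455, so this pair lies close to the threshold. With TMM, 1 negative pair of members was also called when the cow of the 35, 41.5 or 45 kg calf was left out. The same held in residuals on the neutrophil score. With the genes of its integrin partners ITGA4 had r = 0.24 for ITGB1 (permutation p = 0.309) and -0.43 for ITGB7 (permutation p = 0.0609). ITGAL and its ligand ICAM1 had r = 0.56 (permutation p = 0.011, FDR = 0.201), and 0.38 without the 2 cows farthest from the ITGAL median. SELPLG and PECAM1 had no pair with an unadjusted Pearson p below 0.05.

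**Figure D3:**
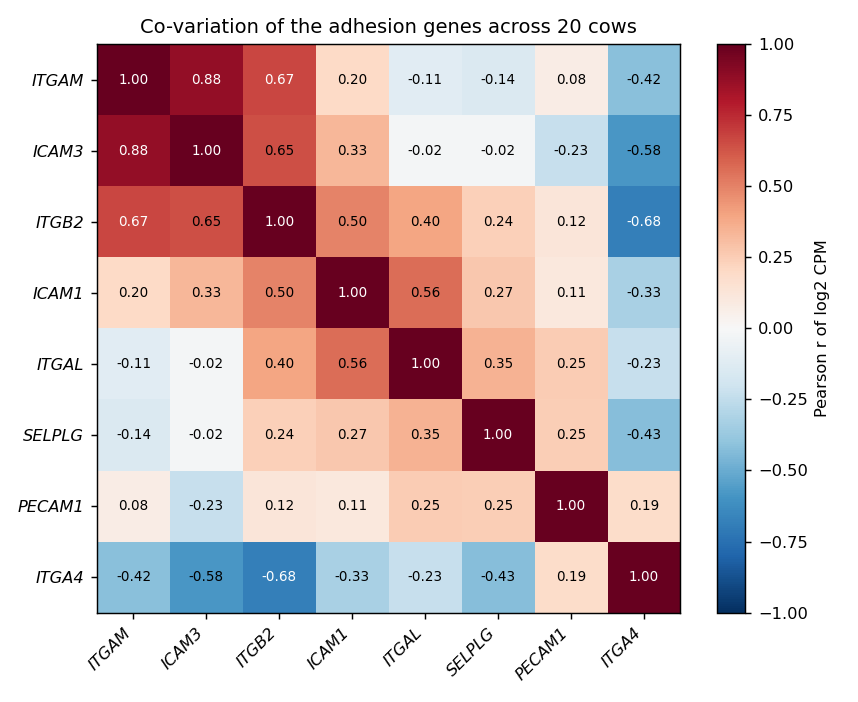
Pearson's r of log2 CPM over 20 cows for each pair of the 8 adhesion genes, from blue (-1) to red (1), with the value in each square. ITGAM and ICAM3 form the one pair with an FDR below 0.05 (0.88), and the row of ITGA4 is mostly negative, down to -0.68 with ITGB2.

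The genes most like each member over the 20 cows were taken as the 3 highest Pearson correlations among all genes tested. ITGAM was closest to HRH4, a histamine receptor of blood cells (r = 0.96, rho 0.94), HK2, a hexokinase (r = 0.96, rho 0.93), and NFE2L1, a transcription factor (r = 0.96, rho 0.94). ICAM3 was closest to TNFSF14, a cytokine of the tumor necrosis factor family (r = 0.93, rho 0.89), ANTXR2, a receptor of collagen and anthrax toxin (r = 0.92, rho 0.89), and CRISPLD2, a secreted protein (r = 0.92, rho 0.91). These 6 values all had permutation p = 1e-05 and FDR = 0.00359.

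ITGB2 was closest to genes of the cytoskeleton, WDR1, which helps to take actin filaments apart (r = 0.89, rho 0.87), and TUBB, a beta-tubulin (r = 0.86, rho 0.83), followed by C29H11orf24 (r = 0.86, rho 0.88), each with permutation p = 1e-05 and FDR = 0.00359. SELPLG was closest to PTK2B, a kinase of the focal adhesion kinase family (r = 0.85, rho 0.75), BCL3, a regulator of NF-kappaB (r = 0.83, rho 0.85), and TNFRSF1A, a receptor of tumor necrosis factor (r = 0.83, rho 0.79), with permutation FDR of at most 0.00555. ITGA4 was closest to TSNAX (r = 0.82, rho 0.82), SELENOI (r = 0.82, rho 0.82) and PHKA1 (r = 0.81, rho 0.80), with permutation FDR of at most 0.00691.

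ITGAL was closest to PEA15 (r = 0.85, rho 0.83, permutation FDR = 0.00359), CTNNBL1 (r = 0.77) and RASSF1 (r = 0.75). PECAM1 was closest to TSPAN33, a tetraspanin (r = 0.82, rho 0.75, permutation FDR = 0.00691), NR4A1, a nuclear receptor induced on cell activation (r = 0.80), and LOC617785 (r = 0.77). ICAM1 was closest to LOC616138 (r = 0.76), PLK1, a kinase of mitosis (r = 0.75), and MCRIP2 (r = 0.72, permutation FDR = 0.0433). The number of tested genes with an FDR below 0.05 was 583 for ITGAM (548 positive), 569 for ICAM3 (505 positive) and 337 for ITGB2 (271 positive). It was 193 for SELPLG, 67 for ITGA4, 20 for ITGAL, 18 for PECAM1 and 16 for ICAM1.

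Blood holds several leukocyte types, and the members were set beside scores of their markers, the mean z-score of each list in each cow. Over the 8 lists with at least 2 markers, 0 of the 64 correlations had an FDR below 0.05. An unadjusted permutation p below 0.05 was found for 10 of the 64. The share of all genes with such a p is not given here, so that count has no background and is not read as a result about the members. SELPLG had r = 0.67 with the neutrophil score (permutation p = 0.00159, FDR = 0.0662, rho 0.66) and 0.59 with the monocyte score (permutation p = 0.0047, FDR = 0.0655, rho 0.65). Of the 9 neutrophil markers 8 were positive with SELPLG, among them CSF3R, the receptor of granulocyte colony stimulating factor (r = 0.71, permutation p = 0.00052, FDR = 0.043), and TREM1, an activating receptor of myeloid cells (r = 0.70, permutation p = 0.00032, FDR = 0.0315). Its highest listed gene was the erythroid ALAS2, at r = 0.77 (permutation p = 6e-05, FDR = 0.0109).

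ITGAM had r = -0.15 with the neutrophil score (permutation p = 0.521, rho -0.09). With the monocyte score it had r = -0.54 (permutation p = 0.0144, FDR = 0.122), but rho was -0.26 and r was 0.10 without the 2 cows farthest from the median score, so that relation rests on those cows. Of the 9 neutrophil markers 2 were positive with ITGAM, PADI4 (r = 0.91, permutation p = 2e-05, FDR = 0.00555) and MMP25 (r = 0.80, permutation p = 8e-05, FDR = 0.0132), and the median over the 9 was -0.37. With ICAM3 the same 2 of 9 were positive, and the median was -0.11. ITGAM had r = -0.49 with the platelet score (permutation p = 0.0278, FDR = 0.413, rho -0.54), and -0.69 without the 2 cows farthest from the median score. ICAM3 had r = 0.53 with the natural killer cell score (permutation p = 0.0161, FDR = 0.263, rho 0.45). ITGAL had its highest r with a score with the natural killer cell list, r = 0.56 (permutation p = 0.0108, FDR = 0.231), and with PRF1, the pore-forming protein of cytotoxic lymphocytes, r = 0.69 (permutation p = 0.00065, FDR = 0.0481). ITGA4 had r = 0.69 with CD28, the costimulatory receptor of T cells (permutation p = 0.00062, FDR = 0.0469). CD28 was the highest of the 7 T cell markers, of which 5 were positive with ITGA4, with a median r of 0.04. With the T cell score ITGA4 had r = 0.17, and -0.11 without the 2 cows farthest from the median score. PECAM1 had r = 0.05 with the platelet score and 0.18 with the endothelial score. The rest of the 10 at p below 0.05 were as follows. ITGB2 had r = 0.47 with the natural killer cell score (permutation p = 0.0351). ICAM3 had r = -0.45 with the monocyte score (permutation p = 0.0448), and 0.25 without the 2 cows farthest from the median score. With the endothelial score, of 2 markers at a low level, SELPLG had r = 0.53 (permutation p = 0.0164, FDR = 0.375). ITGA4 had -0.46 with it (permutation p = 0.0405, FDR = 0.448). Without the 2 cows farthest from the median score these were 0.32 and -0.34.

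Of the cell type markers listed, ITGAM was closest to IL5RA, the receptor chain for interleukin 5 that eosinophils and basophils carry, and ICAM3 to PADI4 (r = 0.89, permutation p = 1e-05, FDR = 0.00359), with IL5RA next. IL5RA was named after its values were seen, as were PADI4, MMP25 and the other markers given with values. IL5RA had 20.2 CPM (40 kg) at the lowest, a median of 58.8 CPM and 200 CPM (56 kg) at the highest, with 148 CPM in the cow of the 46 kg calf. The cows of the 56 and 46 kg calves were therefore highest for IL5RA, ITGAM and ICAM3 alike. IL5RA had r = 0.92 with ITGAM (permutation p = 1e-05, FDR = 0.00359, rho 0.87) and 0.86 with ICAM3 (permutation p = 1e-05, FDR = 0.00359, rho 0.83). Without the 2 cows farthest from the member's median these were 0.86 and 0.75. With ITGB2 it had r = 0.56 (permutation p = 0.0101, FDR = 0.194).

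IL5RA was the one eosinophil marker that passed the filter of 5 listed. CCR3 and ALOX15 had 0 counts in every cow, and EPX and PRG3 could not be matched to a single identifier. The slope of IL5RA itself was 0.0531 ± 0.0188 log2 per kg (SE, 19 cows, unadjusted p = 0.0102, edgeR FDR = 0.216). With the log2 level of IL5RA as a covariate, an alternative chosen after seeing the data, the slope of ITGAM was 0.0036 (unadjusted p = 0.396, edgeR FDR = 0.884) and that of ICAM3 0.0040 (unadjusted p = 0.340, edgeR FDR = 0.862). IL5RA was taken as covariate for its correlation with both genes and has a positive slope of its own, so smaller slopes follow from that choice and are given as a description. Over all genes, 7.71% then had a p below 0.05, beside 13.9% without the covariate. After a linear fit of both genes on IL5RA, ITGAM and ICAM3 had r = 0.41 (permutation p = 0.0722, FDR = 0.476), against 0.88 before. The loss of calls was general: 0 of the 129612 pairs of a member with a tested gene had an FDR below 0.05 after that fit, against 1803 before. With the neutrophil score as a covariate, the slope of ITGAM was 0.0207 (unadjusted p = 0.00857) and that of ICAM3 0.0167 (unadjusted p = 0.0100). Over all cows that score had r = -0.15 with ITGAM and 0.11 with ICAM3, so its use as a covariate could change these slopes little. The fits with IL5RA and with the neutrophil score are therefore not a test of cell type. Whether the share of eosinophils differed between cows was not tested.

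**Figure D4:**
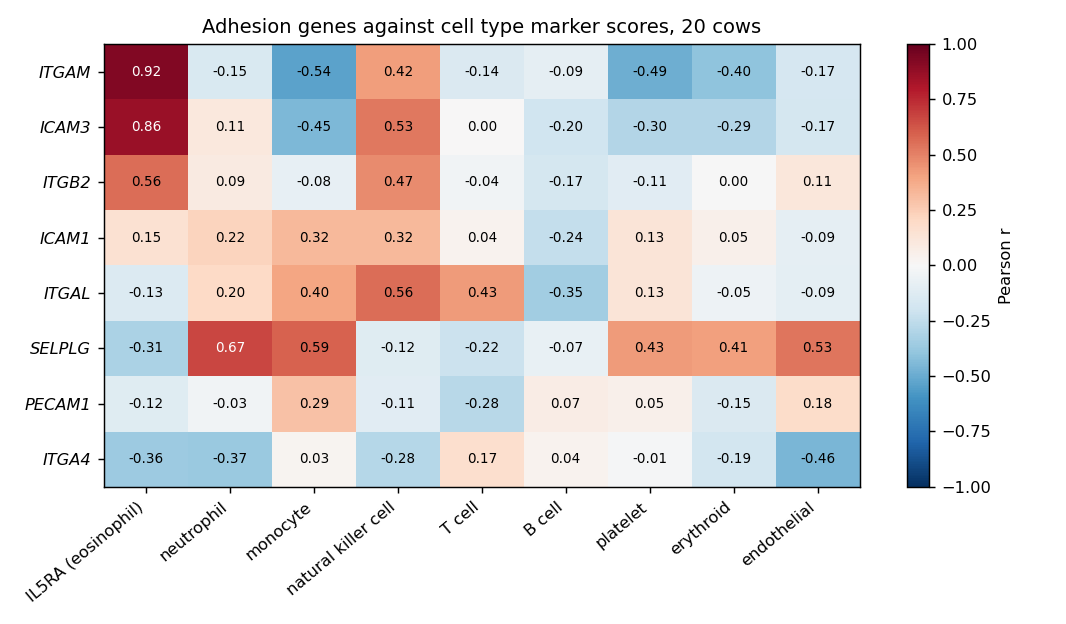
Pearson's r over 20 cows of the log2 level of each adhesion gene with IL5RA, the one eosinophil marker, and with the mean z-score of 8 other cell type marker lists. The highest values are those of ITGAM (0.92) and ICAM3 (0.86) with IL5RA, and with the neutrophil score ITGAM has -0.15, ICAM3 0.11 and SELPLG 0.67. IL5RA is a single gene and the scores are means over lists, so these columns are unlike measures. As a single gene, PADI4 of the neutrophil list had r = 0.91 with ITGAM and 0.89 with ICAM3.

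**Figure D5:**
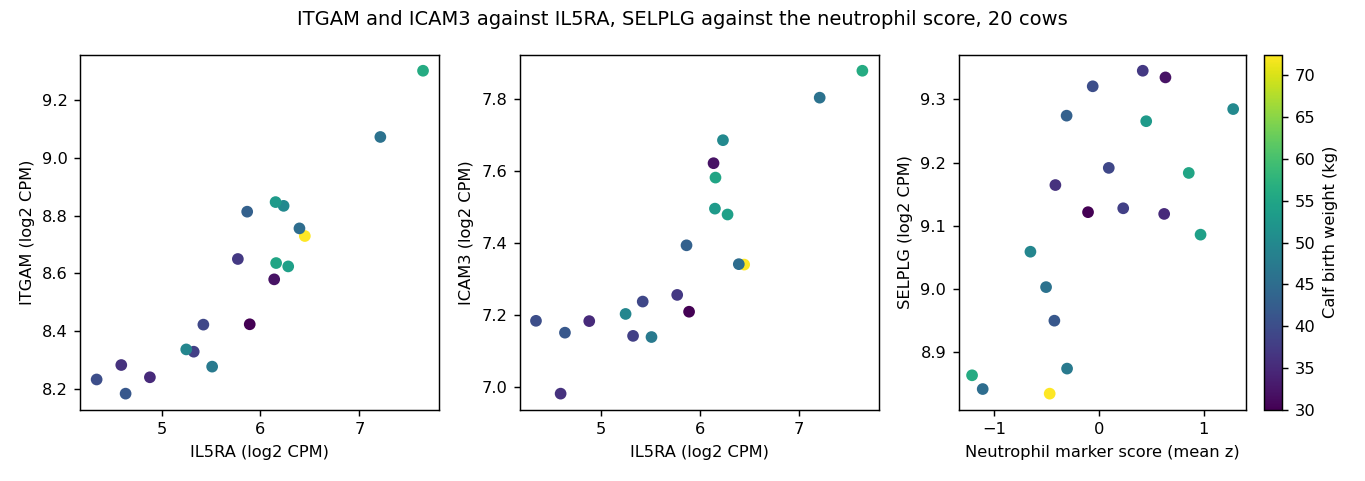
Log2 CPM of ITGAM and of ICAM3 against log2 CPM of IL5RA, and log2 CPM of SELPLG against the neutrophil marker score (mean z-score), 1 point per cow colored by calf birth weight (kg). The cows of the 56 and 46 kg calves lie at the upper right for ITGAM and ICAM3, and r over all 20 cows is 0.92, 0.86 and 0.67.

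Of 70 other genes of leukocyte adhesion in 7 roles, 69 were matched (ICAM2 was not) and 63 tested. Slopes on calf BW were positive for 36 and negative for 27, with a median of 0.0023 log2 per kg beside -0.00072 over all genes tested. In edgeR 0 had an FDR below 0.1, beside 0.315% of all genes. At an unadjusted p below 0.05 there were 10 with a positive and 2 with a negative slope, beside 6.78% and 7.08% of all genes. These counts depend on single cows. Without the cow of the 56 kg calf, CYTH1 had an unadjusted edgeR p of 0.0811 and ITGA5 of 0.0873, and 9.93% of all genes were below 0.05. GCNT1 stayed below 0.05 in all 19 fits that left out 1 cow. In DESeq2 0 of the 61 given an FDR were below 0.05 and 3 were below 0.1, GCNT1 (FDR = 0.0774), VCL (FDR = 0.0974) and ITGA9 (FDR = 0.0985), beside 2.93% of all genes. The genes with such p-values are named after their values were seen.

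Among selectins, 0 of 2 tested had p below 0.05. The endothelial SELE had at most 3 counts in any cow. SELPLG had r = 0.52 with SELP, the selectin of platelets and endothelium (permutation p = 0.0187, FDR = 0.253). Among 9 enzymes that build selectin ligands, GCNT1 and CHST2 had positive slopes at p below 0.05, of 14.3% and 10.8% per 10 kg (edgeR FDR = 0.169 and 0.267). ST3GAL6, the one of highest mean CPM, had 157 to 213 CPM and a slope of 0.0031 log2 per kg (unadjusted p = 0.326).

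Among 14 other integrin subunits, 3 had a positive slope at p below 0.05. These were ITGA9 (50.9% per 10 kg, unadjusted p = 0.00303, edgeR FDR = 0.173), ITGA2B, the platelet subunit (15.3%, unadjusted p = 0.00647, edgeR FDR = 0.196), and ITGB7 (10.9%, unadjusted p = 0.00895, edgeR FDR = 0.212). ITGA5 had a negative slope (-5.37%, unadjusted p = 0.0213, edgeR FDR = 0.267). Of the 14 subunits 9 had a positive slope. The 3 of these at p below 0.05 were also those with a permutation FDR below 0.05 with ITGAM and with ICAM3. Of all tested genes, 3.60% had such an FDR with ITGAM and 3.51% with ICAM3. Both members had positive slopes, so genes that follow them tend to share the slope, and the overlap is not a separate result. With ITGAM r was 0.93 for ITGB7, 0.89 for ITGA9 and 0.83 for ITGA2B (permutation FDR of at most 0.00691). With ICAM3 r was 0.89, 0.85 and 0.76 in the same order (permutation FDR of at most 0.0142). ITGB1, the gene of highest mean CPM in this role, had 470 to 698 CPM and a slope of -0.0037 log2 per kg (unadjusted p = 0.451).

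Of 14 genes that activate integrins or link them to actin, VCL, CYTH1, PIP5K1C and APBB1IP had positive slopes at p below 0.05 and RASGRP2 a negative one, with edgeR FDR of 0.190 to 0.354. TLN1, which opens integrins from inside the cell and had the highest mean CPM of the role, had 1722 to 2099 CPM and a slope of 0.0015 log2 per kg (unadjusted p = 0.522). ITGB2 had r = 0.80 with FLNA, a filamin that binds its tail (permutation p = 5e-05, FDR = 0.00967), and 0.65 with TLN1 (permutation p = 0.00227, FDR = 0.0971). FLNA was the highest of the 14 with ITGB2, where r reached down to -0.47 with a median of 0.41. It was the 1 of the 14 with an FDR below 0.05, beside 2.08% of all tested genes with ITGB2. ICAM3 had r = 0.87 with CYTH1, a regulator of CD18 adhesion (permutation p = 1e-05, FDR = 0.00359), and ITGAM had 0.78 (permutation p = 5e-05, FDR = 0.00967). Of the 14, 3 had an FDR below 0.05 with ICAM3 and 2 with ITGAM, beside 3.51% and 3.60% of all tested genes. FLNA and CYTH1 were named after their values were seen.

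Among 10 signalling genes LCP2, an adaptor that also had the highest mean CPM of the role at 783 to 972 CPM, had a positive slope at p below 0.05 (3.23% per 10 kg, unadjusted p = 0.0437, edgeR FDR = 0.345). ITGB2 had r = 0.77 with RAC2, a GTPase of leukocyte movement (permutation p = 0.00011, FDR = 0.0158). RAC2 was named after its values were seen, as the highest of the 10 with ITGB2, where r reached down to -0.18 with a median of 0.27. It was the 1 of the 10 with an FDR below 0.05, beside 2.08% of all tested genes with ITGB2. None of the 11 other ligands and junction partners or the 3 sheddases had a p below 0.05; CD47 and ADAM10, the genes of highest mean CPM, had slopes of -0.0025 and 0.0037 log2 per kg (unadjusted p = 0.249 and 0.260).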

How the data were processed

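Raw counts per gene for 20 cows, without normalization, were deposited by the authors, who had trimmed the reads (Trimmomatic), aligned them to bosTau9 (STAR 2.7.0b) and counted them with featureCounts (Subread 2.0.3). The labels name a SMARTer Stranded kit and the paper a Truseq-stranded mRNA kit. The strand setting is not given in the sources used here. Names came from an ARS-UCD2.0 gene table; because that build differs from the authors' build, no coordinates or sequences are given.

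The members and gene lists were chosen with earlier results of these data known. Genes named are all members, the gene of highest mean CPM per role, other adhesion genes with an FDR below 0.1, and the 3 genes most like each member; others are said to be named after their values were seen. A gene that this rule names is not reported here.

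A gene was tested if 5 cows or more had 10 counts or more. Slopes on BW used edgeR 4.0.16 (R 4.3.3, TMM, quasi-likelihood test) in 19 cows, as in the study, with Benjamini-Hochberg adjustment. The depth of 24632077 to 39892111 counts per cow limits the precision of low genes. DESeq2 1.42.0, limma 3.58.1 with voom, RLE scaling, no filter, all 20 cows, ranks of BW, a neutrophil or T cell score as covariate, and the removal of each cow in turn were alternatives. DESeq2 with 1 cow left out and IL5RA as a covariate were added after seeing the data. Correlations used TMM log2 CPM in 20 cows and two-sided permutation tests with 100000 resamples; score correlations were adjusted over all genes tested for each score. P-values measure the spread between cows. Scripts were tested on simulated data.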

Additional observations from a re-analysis of the deposited data

How the results depend on the processing

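No paired analysis was possible because all cows form 1 group. The slopes of ITGAM, ICAM3 and SELPLG kept their direction under every alternative. The slope of PECAM1, near 0, was positive with DESeq2 (0.00027), RLE scaling (0.00027), no filter (0.00050), all 20 cows (0.0016) and IL5RA as a covariate (0.0025), and that of ITGB2 was -0.0015 with IL5RA as a covariate. Leaving out 1 cow, the edgeR slopes spanned -0.0031 to 0.0033 for PECAM1, -0.0013 to 0.015 for ICAM1, -0.0042 to 0.00045 for ITGAL and -0.0011 to 0.0039 for ITGA4. With DESeq2 they spanned -0.0026 to 0.0032, -0.0016 to 0.015, -0.0037 to 0.00095 and -0.00061 to 0.0043. Members with an FDR below 0.05 numbered 0 under each alternative, except 0 to 1 when DESeq2 was run with 1 cow left out. In edgeR, members at an unadjusted p below 0.05 numbered 2 (13.9% of all genes), 0 with IL5RA as a covariate (7.71%) and 0 when the cow of the 56 kg calf was left out (9.93%). With DESeq2 and 1 cow left out they numbered 2 in each fit. Without the cow of the 56 kg calf, 1810 of the 23023 genes fitted by DESeq2 had such a p. Over all genes, calls at an FDR below 0.05 numbered 0 in edgeR, 189 with DESeq2, 147 without the filter, 4 with all 20 cows and 0 to 34 in edgeR with 1 cow left out (34 when that of the 32 kg calf was). DESeq2 gave 33 when that of the 56 kg calf and 429 when that of the 32 kg calf was left out. Called pairs of members numbered 1 (1.39% of the pairs of a member with any gene), but 2 with RLE scaling (1.36%), 3 in residuals on the neutrophil score (1.81%), 3 in residuals on the neutrophil and T cell scores (2.6%), 0 in residuals on IL5RA (0.0%), and 1 to 3 with 1 cow left out (3 when that of the 36 kg calf was, 1.28%). The causes were not tested. At 92 to 231 counts per cow, depth limits ICAM1.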
